A study of Mus musculus with 36 samples.

Results

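Late gained loci are stretches of open chromatin that had more ATAC-seq tags in border zone than in sham cardiomyocyte nuclei on both day 7 and day 14 after surgery, and that none of the day 4 lists holds. They were chosen from measured values. The 122759 regions of the 9 deposited lists were joined into 60847 loci wherever regions overlapped by 1 bp or more. For each locus and day, R is the ratio of border zone to sham tags divided by the median ratio of that day's loci, which was 0.929 on day 7 and 1.01 on day 14. A locus was kept when it was listed on days 7 and 14, held no day 4 region and had an R of at least 7/4 on both days. The rule kept 1375 loci. They are 21.8% of the 6304 loci listed on days 7 and 14 without a day 4 region. "Absent from day 4" means not listed, since a region with few tags has no measured value in the lists. On day 4 every listed region had at least 35 tags in the library with more, against 50 on day 7 and 150 on day 14.

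ATAC-seq marks open chromatin, because a transposase inserts sequencing adapters where DNA is free of nucleosomes. Open regions away from gene starts are often enhancers, where transcription factors bind and change the activity of genes nearby. In heart muscle beside an infarct, cardiomyocytes survive next to the scar and are known to lose part of their adult gene programme and to switch on stress genes.

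Nuclei were taken from left ventricles of mice on the FVB/N background, either from the border zone after myocardial infarction or from sham-operated hearts. Days 4, 7 and 14 had 1 border zone and 1 sham library each, and the labels used here do not say how many animals a library holds. On days 7 and 14 both border zone and sham nuclei came from Myh6-MerCreMer;nTnG mice injected with 20 mg/kg of tamoxifen before surgery, and each library was made from 50000 nuclei sorted for GFP. In these mice Cre under the Myh6 promoter, which is active in cardiomyocytes, switches on a nuclear GFP. The labels also list a ROSA26 CAG-Sun1/sfGFP line for these days. On day 4 both border zone and sham nuclei came from Cdh5-Cre; Sun1-sfGFP mice, whose Cre is driven by an endothelial promoter, and after a GFP sort cardiomyocyte nuclei were enriched by a pulldown of PCM1. Day 4 thus differed from both later days in mouse line, isolation of nuclei and read aligner. For the absence of loci from day 4, these differences and time after infarction cannot be told apart. With 1 library per condition and day no difference could be tested, so all values describe these 6 libraries. Genes near the loci and cardiomyocyte marker genes were not examined, because no gene annotation of the build of the files, mm9, was used here. A further 30 RNA-seq samples were not analysed here.

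Listed regions carried 5469934 border zone and 5907384 sham tags on day 4. On day 7 they carried 2743837 border zone and 3858892 sham tags, and on day 14 there were 10328055 and 13936013. Day 14 was thus the most deeply covered of the later days, and a ratio of day 7 rests on fewer tags. Such sums leave out all unlisted parts of the genome, so total depths are unknown. Intervals are exact 95% binomial intervals of whole tags or of numbers of loci, and cover counting error only. PCR copies of one molecule may be among the tags.

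Late gained loci had more border zone than sham tags on both days, and the medians differed by more than 2 times after the authors' scaling of the border zone tags and by less than 2 times in whole tags. On day 7 late gained loci had 50.2 to 4023 listed border zone tags, with a median of 90.2, against 4 to 1858 sham tags, with a median of 36. On day 14 they had 151 to 9412 border zone tags, median 267, against 13 to 3749 sham tags, median 116. In whole tags, before that scaling, the border zone medians were 67 against 36 sham tags on day 7 and 196 against 116 on day 14. The median R, which uses the scaled tags, was 2.60 on day 7 (quartiles 2.16 and 3.38) and 2.26 on day 14 (1.97 and 2.76). In 874 loci both R values were at least 2, in 168 at least 3, and in 32 at least 5. For comparison, 19.7% of all loci listed on day 7 and 10.9% of those listed on day 14 had an R of at least 7/4, and 7.07% of the 26037 loci listed on both days reached it on both. The rule used these ratios, so they are a description. The lower counting bound of R was above 1 on both days in all 1375 loci. The threshold and the smallest listed numbers of tags nearly fix this in advance, so nothing is read from it. The bound was at or above 7/4 on day 7 in 733, on day 14 in 761 and on both in 507. The nuclei were sorted in bulk, so an opening in more nuclei and a wider opening in each nucleus cannot be told apart.

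**Figure D1:**
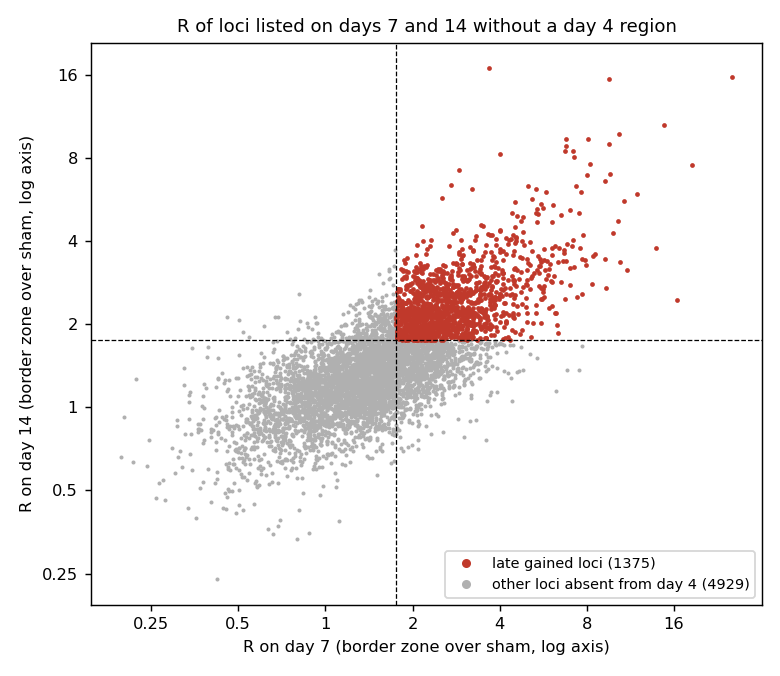
R on day 7 (horizontal, log axis) and on day 14 (vertical, log axis) of the 6304 loci listed on both days without a day 4 region; red points are the 1375 late gained loci and grey points the other 4929, and dashed lines mark the threshold of 7/4. Red points fill the upper right corner by the rule, and 32 of them reached an R of at least 5 on both days.

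The authors' own lists rest on the same tags. A region of their border zone-higher list lay in 1306 of the 1375 loci on day 7 (94.98%, against 19.6% of all loci of that day). The same 1306 held such a region on both days, against 8.51% of the 26037 loci listed on both. In the remaining 69 loci day 7 held only regions that the authors listed as not differing. No late gained locus held a sham-higher region on either day. Nothing is read from these counts, because lists and R share their values.

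The loci with the strongest difference had very few sham tags. The 10 late gained loci with the largest smaller R of the 2 days had 4 to 16 sham tags on day 7 and 13 to 38 on day 14. At the first of them, chr6:94748751-94750250 (mm9), the border zone had 118 tags against 5 sham tags on day 7 and 208 tags against 13 on day 14. This gave an R of 25.4 on day 7 (10.5 to 79.8) and of 15.8 on day 14 (8.97 to 30.4). A day 4 region of the border zone-higher list lay 2.5 kb from this locus. At chr7:94469751-94470750 the border zone had 54.8 tags against 4 in sham on day 7, and 225 against 21 on day 14. Its R was 14.8 (5.40 to 56.4) on day 7 and 10.6 (6.68 to 17.5) on day 14. No day 4 region was listed within 972 kb of it. At chr15:90262251-90263250 the border zone had 125 tags against 13 in sham on day 7 and 377 against 38 on day 14, an R of 10.4 (5.78 to 20.2) and 9.78 (6.95 to 14.12). Both libraries of day 14 gave it the most tags among these 10 loci, and its nearest day 4 region was 555 kb away.

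A pair of these 10 loci lay on chromosome 16. At chr16:86360751-86361750 the border zone had 61.8 tags against 7 in sham on day 7 and 204 against 13 on day 14, and R was 9.51 (4.31 to 24.8) and 15.5 (8.78 to 29.8). At chr16:95459751-95460750 it had 88.9 against 10 tags and 192 against 21, and R was 9.57 (4.89 to 20.9) and 9.01 (5.67 to 15.01). The counting intervals of the days overlapped at both, so neither could be called higher on one day at this depth. At chr11:121059751-121060750 the border zone had 67.7 tags against 9 in sham on day 7 and 219 against 23 on day 14. At chr19:21868751-21869750 it had 68.8 against 9 and 225 against 29. The smaller R of these loci was 8.10 (3.98 to 18.6) and 7.64 (5.13 to 11.8). The locus chr18:62176751-62177750 had 68.8 border zone tags against 4 sham tags on day 7, an R of 18.5 (6.87 to 70.3), and 177 against 23 on day 14, an R of 7.58 (4.84 to 12.4). The last of the 10 were chr8:123839751-123840750, with 80.8 border zone tags against 12 in sham on day 7 and 197 against 24 on day 14, and chr6:98725251-98726750, with 106 against 16 and 197 against 23. Their smaller R was 7.25 and 7.15. All 10 spanned 1000 or 1500 bp, as most late gained loci did.

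At the threshold, loci inside and outside the rule differed little. The 3 loci just inside were chr13:56748751-56749750, chr7:82830751-82832250 and chr2:143959751-143961250, with an R of 1.7508, 1.7511 and 1.7516 on day 14 and of 2.24, 2.01 and 2.31 on day 7. Just outside lay chr4:138702251-138703250 and chr4:124252251-124253250, whose R was 3.13 and 3.19 on day 7 but only 1.74999 and 1.7495 on day 14. The third locus outside was chr10:85831251-85832250, with an R of 1.7490 on day 7 and 2.28 on day 14.

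At the 5 loci with the most tags, sham tags of day 14 stood further from those of day 7, or closer to them, than at most late gained loci. The most tags of all were in chr8_random:674251-687750, on a contig not placed on the chromosome. Its border zone had 4023 tags against 1858 in sham on day 7 and 6586 against 2412 on day 14, an R of 2.33 (2.20 to 2.47) and 2.69 (2.56 to 2.83). The locus chr2:98503251-98504750 had 599 border zone tags against 360 in sham on day 7, but 9412 against 3749 on day 14, an R of 1.79 (1.56 to 2.07) and 2.47 (2.38 to 2.58). The next was chr9:3007751-3009250, with 831 against 391 tags on day 7 and 6329 against 2887 on day 14. Sham tags of day 14 were 10.4 and 7.38 times those of day 7 at these 2 loci, whereas over all late gained loci the median was 3.1 (quartiles 2.28 and 4.15). They were 1.30 times those of day 7 at the chr8_random locus. A further 2 of the 5 loci with the most tags were chr5:15036751-15045750, with a ratio of 0.983, and chr8_random:815251-825250, with 1.14. In all, 41 late gained loci had fewer sham tags on day 14 than on day 7, and 36 had at least 8 times as many. For these loci and the 5 with the most tags, whether tags come from repeated sequence, where reads of several copies can be placed at 1 site, was not tested, and the counting intervals of R do not cover it.

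R was somewhat higher on day 7 than on day 14 in most late gained loci. It was higher on day 7 in 960 (69.8%) and on day 14 in 415. The median log2 of R on day 14 over R on day 7 was -0.19, against 0.06 over all 26037 loci listed on both days. In the 467 loci that reached the same R on both days and do have a day 4 region, it was -0.13 (quartiles -0.37 and 0.05). Both of these sets were cut by R of both days, so their shifts are a description. R of the 2 days was within 1.25-fold in 738 loci and over 2-fold apart in 77, of which 71 were higher on day 7. The shift differed with the number of sham tags on day 7. These are the denominator of R on day 7, so few of them go with a high R that day and a lower change, and the order of the bins is built in. In the 281 loci with under 25 sham tags on day 7 the median was -0.53, in the 650 with 25 to 49 it was -0.19, in the 295 with 50 to 99 it was -0.10 and in the 149 with 100 or more it was -0.01. Across the loci, Spearman's correlation of R on both days was 0.43 (n = 1375) and 0.24 in the 440 loci with at least 50 sham tags on each day. The threshold limits the range of both values, and loci are not independent replicates.

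The largest changes of R were sought among these 440 loci. The largest increase was at chr15:75933251-75935250, where the border zone had 189 tags against 108 in sham on day 7 and 173 against 51 on day 14. Its R was 1.88 on day 7 and 3.34 on day 14, a log2 change of 0.83 (0.21 to 1.45). Its sham tags on day 14 were 0.472 times those on day 7, against a median of 3.1 over all late gained loci. The next increases were at chr5:131433751-131434750, with a log2 change of 0.75 (0.07 to 1.42), and chr10:71755751-71756750, with 0.71 (0.08 to 1.33). The largest decrease was at chr17:13404751-13406250. There the border zone had 242 tags against 53 in sham on day 7 and 240 against 102 on day 14, and R was 4.93 on day 7 and 2.32 on day 14, a log2 change of -1.09 (-1.68 to -0.50). At chr3:156768251-156769750 the change was -1.03 (-1.56 to -0.51), and at chr11:94742251-94744750 it was -1.02 (-1.47 to -0.58). The intervals of these 6 lay away from 0, but the loci were picked as the extremes of 440, and no replicate could check them.

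In median level, late gained loci lay well below the loci listed on all 3 days in sham. In the border zone they lay above these on day 7 and near them on day 14. To compare libraries of unequal coverage, whole tags per kb of listed length were divided by the median of the 19733 loci listed on all 3 days. On this scale late gained loci had a median border zone level of 1.348 on day 7 and 0.918 on day 14, against sham levels of 0.413 and 0.359. The other 4929 loci absent from day 4 had 1.04 and 0.878 in the border zone and 0.688 and 0.648 in sham. Late gained loci were lower than these in sham and higher in the border zone, most of all in sham, and the rule itself selects for this. The border zone medians of both sets fell between the days. The lowest border zone level of a late gained locus fell too, from 0.511 to 0.334. Each day's lists had their own smallest number of tags, which can set this fall, so nothing is read from it. The comparison also holds the 467 loci that reached the same R on both days and did have a day 4 region. Their border zone levels were 1.59 and 1.08 and their sham levels 0.545 and 0.455, all above those of the late gained loci.

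**Figure D2:**
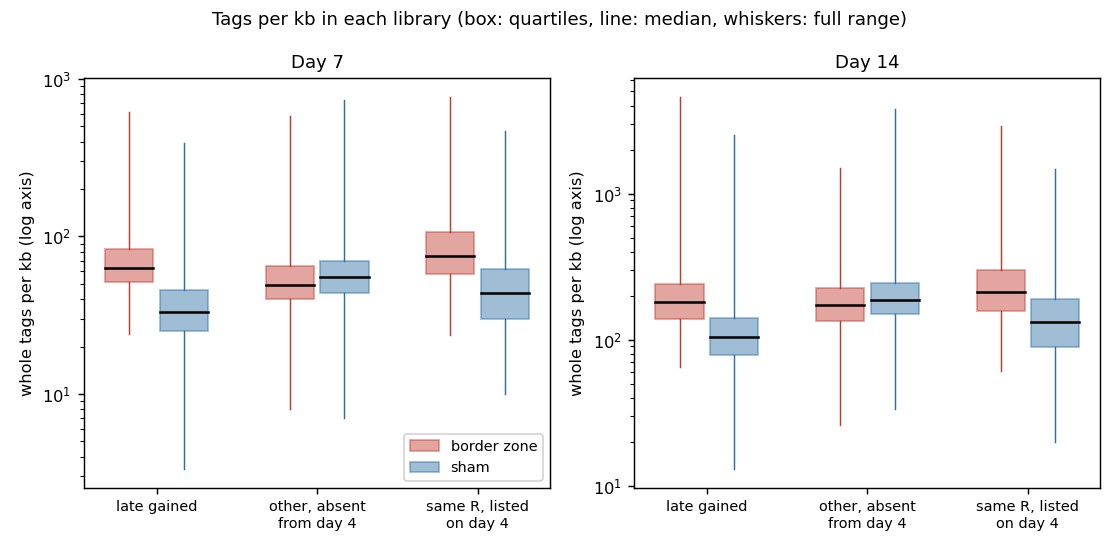
Whole tags per kb (log axis) on days 7 and 14 in border zone (red) and sham (blue) libraries, for late gained loci (n = 1375), other loci absent from day 4 (n = 4929) and loci with the same R that day 4 lists (n = 467). Late gained loci had a median of 63.3 border zone against 33 sham tags per kb on day 7, and 180 against 104 on day 14.

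The levels of the later days can be set beside the smallest number of tags listed on day 4. A region of 1 kb with the day 7 border zone level of a late gained locus would hold a median of 135 tags on the scale of the day 4 border zone library (quartiles 109 and 177). With the day 14 level it would hold 92.3. The minimum numbers of tags of the day 7 and day 14 lists nearly fix that these border zone values exceed the day 4 minimum of 35, so nothing is read from them. At the sham level of day 7 it would hold 46.2 sham tags, and at that of day 14 40.2, at or above 35 in 1049 and 858 of the 1375 loci. These counts were not made for other loci. The 35 is the smallest number seen in the lists and the rule of listing is not known, so reaching it does not mean being listed. The scale takes the loci listed on all days as equally open on each of them, which was not tested. On this scale the 467 loci with the same R that day 4 lists had lower median levels on day 4 than later. Their median sham level was 0.321 on day 4, against 0.545 on day 7 and 0.455 on day 14. In the border zone it was 0.587, against 1.59 and 1.08. These loci had to pass the threshold on both later days, while day 4 only had to list them. The lists also differed in their smallest number of tags. Both can set this order, so nothing is read from it. Whether late gained loci were as low on day 4 was not measured.

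Both R and the lack of a day 4 region entered the rule, so their relation among the 26037 loci listed on days 7 and 14 is a description, and nothing is supported with it. No day 4 region was found in 24.2% of all these loci and in 74.6% of the 1842 with an R of at least 7/4 on both days. By the smaller R of the 2 days, the share without a day 4 region was 7.48% below 0.8, 23.0% from 0.8 to 1.25, 54.8% from 1.25 to 7/4 and 72.0% from 7/4 to 2. It was 75.1% from 2 to 3 and 78.2% from 3 to 5, and none of the 32 loci from 5 upwards had a day 4 region. Of the loci with an R of at most 0.571 on both days, 29 had no day 4 region and 790 had one.

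Sham level moved with R, and its part in the lack of a day 4 region was not tested. The median number of sham tags per kb on day 14 was 303 at an R below 0.8 and 31.5 from 5 upwards. Sham tags are the denominator of R, so bins of sham level do not separate the 2, and these bins were chosen after the data were seen. With 100 to 150 sham tags per kb on day 14, 76.0% of 600 loci past the threshold on both days had no day 4 region, against 58.4% of 1760 other loci. With 150 to 200 it was 71.3% of 261 against 35.1% of 4441, and with 300 or more 38.0% of 50 against 6.38% of 9907. Below 75 it was 80.6% of 366 against 61.9% of 42. By border zone level on day 14 the shares were 81.9% of 553 against 24.9% of 7128 below 150 tags per kb, and 29.2% of 48 against 9.36% of 684 from 500 upwards.

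**Figure D3:**
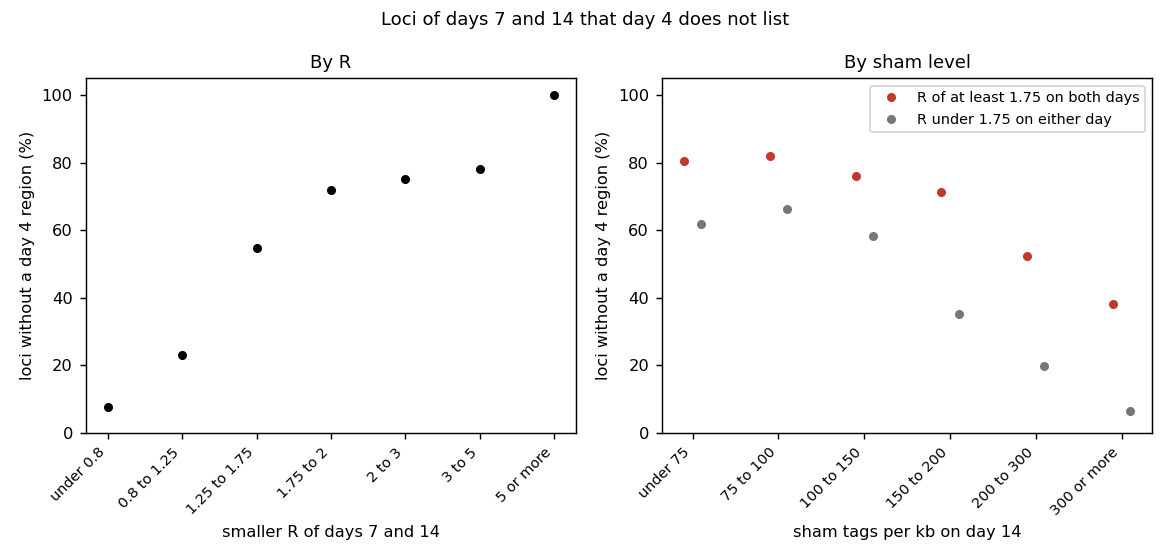
Share of the 26037 loci of days 7 and 14 without a day 4 region (%), by the smaller R of both days (left) and by sham tags per kb on day 14 (right; red, R of at least 7/4 on both days; grey, the rest). The share was 7.48% at an R below 0.8 and 72.0% or more from 7/4 upwards, and red points lay above grey ones in every sham bin. In the lowest bin the grey point rests on 42 loci, and its interval (45.6 to 76.4%) overlapped the red one (76.2 to 84.5%). Sham tags are the denominator of R, so the bins do not separate sham level from R.

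Day 4 values exist only for the loci with the same late R that day 4 does list. In these 467 loci the border zone had a median of 67 listed tags against 45 sham tags on day 4. The tags of day 4 did not enter the late R, but the listing on day 4 chose these loci. Their R on day 4 had a median of 1.74 (quartiles 1.13 and 2.70). It was at least 7/4 in 233 (49.9%), against 4.22% of the 19733 loci listed on all 3 days and 11.6% of all 44885 loci of day 4. A region of the authors' border zone-higher list of day 4 lay in 243 (52.0%), against 6.96% of the loci listed on all 3 days. Counted as regions, 12.2% of all 46827 on day 4 were in that list. The smallest R on day 4 was 0.365 and the largest 21.3, so some of the 467 loci went against the later days. A locus with under 35 sham tags could reach the day 4 minimum only through its border zone tags. In the 467 loci the lower quartile of sham tags on day 4 was 23.5, so part of both shares can be set by the listing. These values therefore cannot be carried over to the late gained loci.

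Day 4 regions beside late gained loci were border zone-higher about as often as those beside other loci absent from day 4. Of the 1367 loci on chromosomes with day 4 regions, the median distance to the nearest one was 13.0 kb, against 10 kb for the other loci, and 604 (44.2%) had one within 10 kb, against 51.4%. Within 50 kb, 1142 had a day 4 region. The nearest was border zone-higher in 135 of them, or 11.8% (10.01 to 13.8%), against 11.3% for the other loci (10.4 to 12.3%) and 12.2% of all 46827 day 4 regions. It was sham-higher in 91, or 7.97% (6.46 to 9.69%), against 8.18% (7.37 to 9.04%) and 7.37% of all. The median R of that region was 0.995 beside late gained loci and 0.995 beside the others. Within 10 kb the border zone-higher share was 10.9% in both sets, and within 200 kb it was 12.2% and 11.9%. The intervals of both sets overlapped at all 3 distances.

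**Figure D4:**
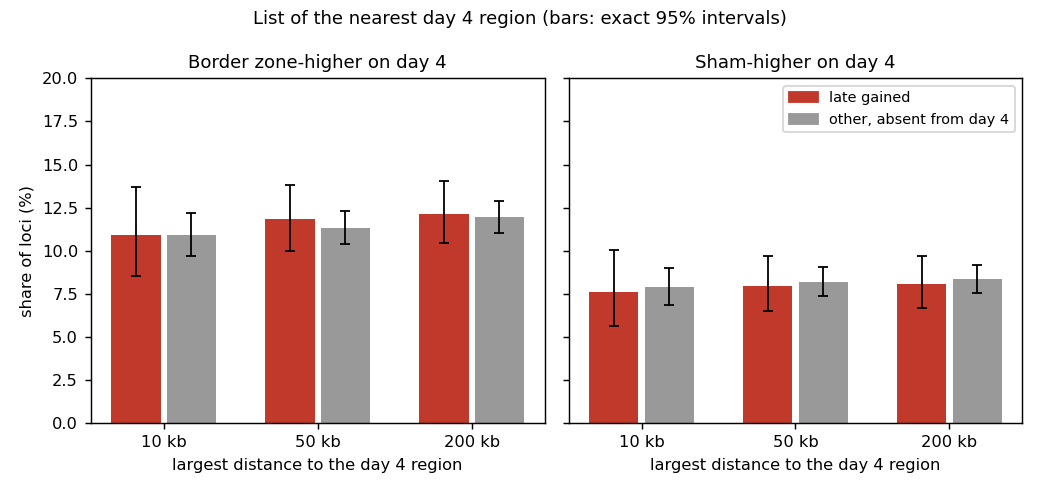
Share of loci (%, with exact 95% intervals) whose nearest day 4 region within 10, 50 or 200 kb was border zone-higher (left) or sham-higher (right), for late gained loci (red) and other loci absent from day 4 (grey). Within 50 kb the border zone-higher share was 11.8% and 11.3%.

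Late gained loci were about as wide as other loci that day 4 lacks. A width of 1000 bp was found in 826 (60.1%), 1500 bp in 388 (28.2%) and 2000 bp or more in 161 (11.7%). Of the other loci absent from day 4, 60.9% spanned 1000 bp and 9.84% 2000 bp or more. Of loci with the same R that day 4 lists, 40.3% spanned 1000 bp and 27.4% 2000 bp or more, and a locus that joins the regions of 3 days can be wider for that reason. In 1242 late gained loci each day had 1 region, and in 971 of these (78.2%) both regions had identical bounds. Only 8 late gained loci spanned 5000 bp or more. The 3 widest were chr8_random:674251-687750, chr5:14944751-14956750 and chr8_random:815251-825250, with 13500, 12000 and 10000 bp.

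Late gained loci were spread over the genome. Every autosome held between 35, on chromosome 19, and 118, on chromosome 2, and chromosome X held 13. As a share of the loci absent from day 4, they ranged from 16.9% on chromosome 4 (13.2 to 21.2%) to 30.2% on chromosome 16 (24.0 to 37.0%) among the autosomes, and chromosome 5 had 113 of 427 (26.5%, 22.3 to 30.9%). The remaining 8 lay on contigs without a place on a chromosome, 5 of them on Un_random, 2 on 8_random and 1 on 9_random. Day 4 lists held 0 regions on such contigs, where days 7 and 14 listed 133 and 108. The absence of these 8 loci from day 4 is therefore shared by every locus there.

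Most late gained loci stood alone. With another late gained locus within 50 kb counted as a neighbour, 977 had none, and 398 (28.9%, 26.6 to 31.4%) formed 165 runs of 2 or more. A neighbour of the same set lay within 50 kb of 48.3% of the 4929 other loci absent from day 4 and of 16.1% of the 467 loci with the same R that day 4 lists, and the sets differ in size. Only 3 runs had 5 or more loci, which together held 28. Day 4 listed no region at all inside the span of 89 of the 165 runs. In the others it listed 188 regions, of which 30 were border zone-higher (15.96%, 11.03 to 22.0%) and 11 sham-higher (5.85%, 2.96 to 10.2%). Both intervals hold the shares over all day 4 regions, 12.2% and 7.37%. Without the longest run these were 24 of 179 (13.4%, 8.78 to 19.3%) and 11.

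The longest run stood apart in several ways. It held 18 late gained loci in 310.0 kb at chr5:14903751-15213750, out of 27 loci listed there on days 7 and 14. R along it ranged from 1.83 to 2.53 on day 7, with a median of 2.11, and from 1.80 to 3.60 on day 14, with a median of 2.33. Together these loci had 9859 border zone tags against 5005 sham tags on day 7 and 10099 against 4245 on day 14. Their sham tags of day 14 were a median of 0.817 times those of day 7, against 3.1 over all late gained loci, and 12 of the 18 had fewer sham tags on day 14. Their width ranged from 1000 to 12000 bp, with a median of 3500. Day 4 listed 9 regions between these loci, 6 of them border zone-higher and 0 sham-higher. The R of these 9 regions on day 4 lay between 1.48 and 2.38. At chr5:14994251-14995750, for example, day 4 had 84.8 border zone tags against 38 sham tags. Whether this stretch is repeated sequence, so that its tags and R are not those of single open sites, was not tested.

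**Figure D5:**
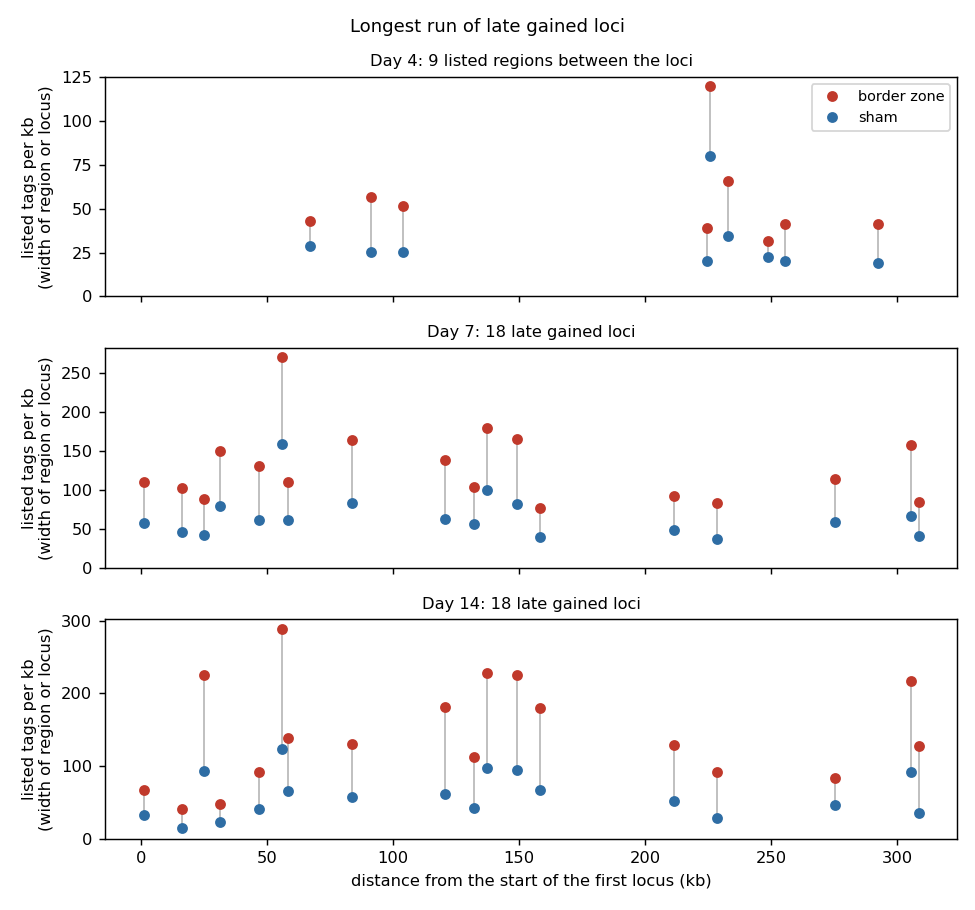
Listed tags per kb in border zone (red) and sham (blue) along the longest run of late gained loci, where repeated sequence was not tested for, by distance from the start of its first locus (kb), on day 4 (9 listed regions between the loci), day 7 and day 14 (18 loci each). The border zone point lies above the sham point in every region of all 3 days.

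Other runs were short. At chr4:149220751-149317750, 5 late gained loci had 448 border zone tags against 141 sham tags on day 7 and 1378 against 611 on day 14, with a median R of 4.19 and 2.03. At chr7:149583751-149671250, 5 loci had 1067 against 489 tags and 1804 against 832, with a median R of 2.19 and 2.13. Day 4 listed 5 regions in the first and 2 in the other, none of them differing. Of the 8 runs of 4 loci, chr10:127027251-127099250 had 666 against 280 tags on day 7 and 1173 against 485 on day 14, and chr11:32236251-32258250 had 362 against 158 and 977 against 432. Day 4 listed 1 region in each, not differing in the chr10 run and border zone-higher in the chr11 run. One more run of 4 is given because its values stood out. At chr12:111304251-111351750 all 4 loci listed on days 7 and 14 were late gained and day 4 listed 0 regions. It had 600.0 border zone tags against 208 sham tags on day 7 and 2280 against 763 on day 14, and its median R was 4.21 and 4.00.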

How the data were processed

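Of the 6 ATAC-seq libraries, day 4 was aligned with Bowtie2 and days 7 and 14 with BWA, to mm9, and bedtools was used, per the submitters' processing notes. The sources used here give no versions, region caller or thresholds. Day 4 libraries were sequenced with paired reads of 76 bp, per the labels' protocols. Per the file headers, each list gives sham and border zone tags per region. The sham tags, and the border zone tags of the non-differing day 4 list, are deposited as whole-number counts. The other border zone tags are a signal that the authors scaled, as read from the values: 97.6% of 85106 were a whole number times 1 of a few factors (tolerance 0.001%), 1.34694 and 1.16667 on day 7 and 1.37118 and 1.18085 on day 14. Whole tags recovered by dividing were used for levels and counting intervals, and 29 values could be recovered only approximately. R uses listed tags. A stretch in no list has no value.

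Loci and lists were chosen with earlier results of these data known, and 0 columns of unmapped samples were used. Named loci follow a rule: the 10 with the largest smaller R, 3 on each side of the threshold, the 5 with the most tags, the 3 widest, the 3 largest changes of R each way with at least 50 sham tags on both days, and the 5 longest runs, ties in order of chromosome name. With 1 library per condition and day nothing was tested. The share of loci without a day 4 region by R and level, the levels on the day 4 scale and the sham tags between days were added after the data were seen. Joining and selection were checked on simulated regions. Python 3.11.15, pandas 2.3.3 and SciPy 1.17.1 were used. Coordinates are mm9, counted from 1. No sequence is printed, since no mm9 genome was used here.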

Additional observations from a re-analysis of the deposited data

How the results depend on the processing

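No paired analysis was possible because each condition had 1 library per day and no result came from a test. For the same reason no replicate could be left out. The number of late gained loci, 1375, was within 1.5 times under 10 of 14 alternatives, from 1250 to 1685. It was 2167 with a threshold of 1.5, 874 with 2, 440 with at least 50 sham tags on each day, and 2492 with the threshold on day 7 alone. Joining regions from 500 bp of overlap could change no result, because the regions lie on a grid of 500 bp. Leaving out unplaced contigs (1367 loci) could only remove loci. The tally of alternatives thus says little about stability. Undivided ratios gave 1334 loci, of which 1289 overlapped a late gained locus, and whole border zone tags gave 1381, of which 1355 did. The median log2 of R on day 14 over R on day 7 was below 0 under all 14. Under 9 of them it lay between -0.21 and -0.17, against the reported -0.19. It lay further away with undivided ratios (-0.10), at least 50 sham tags (-0.068) and the authors' lists on both days (-0.24). The same held with the threshold on day 7 alone (-0.42) or day 14 alone (-0.081). The share with a neighbour within 50 kb was 36.8% with a threshold of 1.5, 21.5% with 2, 20.0% with at least 50 sham tags, 35.8% and 31.9% with the threshold on day 7 or day 14 alone, and 11.8% and 49.2% at 10 and 200 kb. It follows the number of loci and the distance by construction. The share whose nearest day 4 region was border zone-higher stayed between 10.9% and 12.9% under all 16 settings tried for it. Leaving out the longest run and unplaced contigs, or loci with fewer or at least 8 times the sham tags on day 14, was added after the data were seen and left 1349 and 1298 loci. Depth limits the loci with few sham tags most, where R has wide intervals.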
